A study of Mus musculus with 48 samples.

Results

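The clustered protocadherins are cell adhesion genes that lie side by side in alpha, beta and gamma subclusters on mouse chromosome 18. They were chosen here by gene symbol and by a mean level of at least 0.5 CPM (read counts scaled to library size) over all libraries. This rule kept 57 of the 59 rows with such a symbol, out of 48795 genes in the table: 14 in the alpha subcluster, 22 in the beta subcluster and 21 in the gamma subcluster. The 2 rows left out both carry the symbol Pcdhgb8 and had means of 0.0738 and 0 CPM, while the lowest members kept were Pcdhb1 at 0.642 CPM, Pcdha8 at 0.727 CPM and Pcdha4 at 0.773 CPM. All 57 members passed the filter on low counts.

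Each alpha and gamma gene is a large variable first exon with its own promoter, spliced to constant exons that all genes of its subcluster share, whereas a beta gene is a single exon. Single neurons switch on a small, partly random set of these promoters, and the resulting proteins bind only matching sets on other membranes, which lets a neuron tell its own branches from those of other cells. The 5 C-type genes (Pcdhac1, Pcdhac2, Pcdhgc3, Pcdhgc4 and Pcdhgc5) are the exception: they are used more evenly across cells and lie at the end of the alpha and gamma subclusters.

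RNA of the striatum, the brain region hit hardest in Huntington's disease, was sequenced in 48 C57BL/6 mice of 6 genotypes, with 8 mice (4 females and 4 males) in each. The genotypes were Q140 x Msh3-/-, Q140 x Msh3+/-, Q140, Msh3-/-, Msh3+/- and wild type (WT). Q140 mice are heterozygous for a knock-in Huntington's disease allele, a long CAG repeat in the huntingtin gene. The crosses carry it together with 1 or 2 mutant alleles of Msh3, a mismatch repair gene needed for that repeat to grow in somatic cells. The stated age is 12 months in the sample labels and 6 months in the text on extraction. How the Msh3 allele was made is not given in the sources used here.

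Library totals had a median of 47.3 M counts and ranged from 38.9 to 60.9 M. Counts on Msh3 averaged 115.5 ± 7.78 CPM in Q140 x Msh3-/- mice, 74.9 ± 3.92 CPM in Q140 x Msh3+/- mice, 30.5 ± 1.19 CPM in Q140 mice, 122.4 ± 3.1 CPM in Msh3-/- mice, 73.9 ± 1.56 CPM in Msh3+/- mice and 29.0 ± 1.61 CPM in WT mice (SD, n = 8 each). They sorted the libraries by their labelled Msh3 genotype but were higher, not lower, with each mutant allele, so the Msh3 genotypes below are those of the labels, and each direction given for them depends on those labels. All 12 markers of striatal projection neurons, the main cell type of the striatum, were detected in every library. Their summed level was 7742 to 8665 CPM in Q140 mice, against 13835 to 15360 CPM in WT mice. All 12 were lower in Q140 mice at an edgeR adjusted p under 0.05, beside 16.0% of all genes tested. In bulk tissue, fewer cells of a type and less RNA per cell cannot be told apart, and the part of this difference in the results on protocadherins was not tested.

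The members differed widely in level before any comparison. The cluster spans 911.7 kb (GRCm38, chromosome 18, 36930184 to 37841873, plus strand). Reads on the shared exons of the alpha and gamma genes fit several genes, and 4 other genes of the locus made up only of shared exon held 0 counts, so levels are given per kb of exon that belongs to 1 gene alone. On that scale the gamma members had a median of 9.16 CPM per kb over all libraries (2.32 to 26.9), the beta members 2.89 (0.248 to 6.28) and the alpha members 0.84 (0.294 to 9.99).

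In WT mice Pcdhgc5 was the highest member, at 27.1 ± 1.63 CPM per kb of its own exon (SD, n = 8), and Pcdhgc3 followed at 24.5 ± 0.722. Their ranges over mice overlapped at the edges, 24.5 to 30.0 for Pcdhgc5 and 23.2 to 25.3 for Pcdhgc3. Pcdhac2, at 9.78 ± 0.675 CPM per kb, alone held 53.3% of the alpha counts of WT mice. The other C-type genes were lower: Pcdhgc4 stood at 2.35 ± 0.153 CPM per kb and Pcdhac1 at 0.712 ± 0.0915. The highest gamma member outside the C-type was Pcdhga6, at 17.5 ± 1.04 CPM per kb, and the highest beta member was Pcdhb9, at 5.2 ± 0.398. The lowest was Pcdhb1, at 0.232 ± 0.0665 CPM per kb, whose range over mice overlapped that of Pcdha8. In the deposited FPKM, whose lengths include the shared exons, the order at the top was the same, with Pcdhgc5 at 16 and Pcdhgc3 at 14.7 FPKM in WT mice, but Pcdha4 was the lowest member, since 91.4% of its exon length is shared with other genes.

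**Figure D1:**
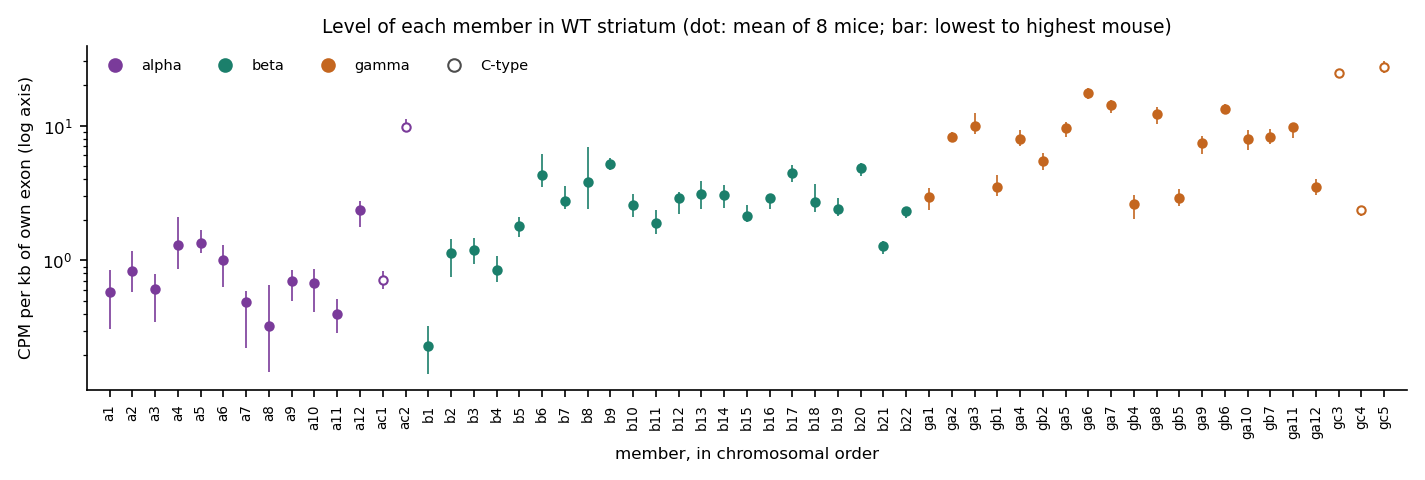
Level of each of the 57 members in WT striatum, in CPM per kb of the member's own exon on a log axis, in chromosomal order. Dots are means of 8 mice and bars run from the lowest to the highest mouse. Pcdhgc5 and Pcdhgc3 stand highest, at 27.1 and 24.5 CPM per kb, and most alpha members stand lowest.

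Mice of 1 genotype also differed more in some members than in others. The coefficient of variation between WT mice had a median of 22.6% in the alpha members, 12.4% in the beta members and 8.87% in the gamma members. Levels ran the other way, with medians of 0.84, 2.89 and 9.16 CPM per kb over all libraries. The part of read depth in this order was not tested. Pcdhgc3 was the steadiest, at 2.95%, and Pcdha8 the most variable, at 53.3%, with 16 to 66 reads per WT library. Pcdhb8 varied by 40.4% at a far higher depth, 351 to 1192 reads per library. Its highest WT values, 24.3 and 18.7 CPM, came from libraries whose name prefix is not that of the rest. The other 6 WT libraries averaged 10.6 CPM, with an SD of 1.31 CPM.

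The first comparison was Q140 mice with WT mice, which asks what the knock-in allele does to each subcluster. In Q140 mice most beta genes and many alpha genes rose, while the gamma genes split into members that rose and members that fell. Of the 57 members 30 rose and 7 fell at an adjusted p under 0.05 (edgeR's quasi-likelihood test, Benjamini-Hochberg over all 19714 genes tested). Of all genes tested, 17.0% rose and 16.0% fell. By limma on log2(FPKM + 0.1), 35 members rose and 4 fell, 3 of them gamma genes. These FPKM are scaled to library totals, and such scaling of the counts moved the median of all genes by 0.069. The beta subcluster had 16 of 22 higher and 1 lower, the alpha subcluster 8 of 14 higher and 1 lower, and the gamma subcluster 6 of 21 higher and 5 lower. The median log2 fold change was 0.453 in beta, 0.389 in alpha and 0.018 in gamma, beside -0.004 over all genes tested.

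The groups did not overlap for 14 members that lay higher in every Q140 mouse than in every WT mouse: 10 beta, 3 alpha and 1 gamma. Of all genes tested, 3.88% lay higher in this way. A single member, Pcdhgb7, lay lower in all 8 Q140 mice than in any WT mouse, as did 5.10% of all genes tested.

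**Figure D2:**
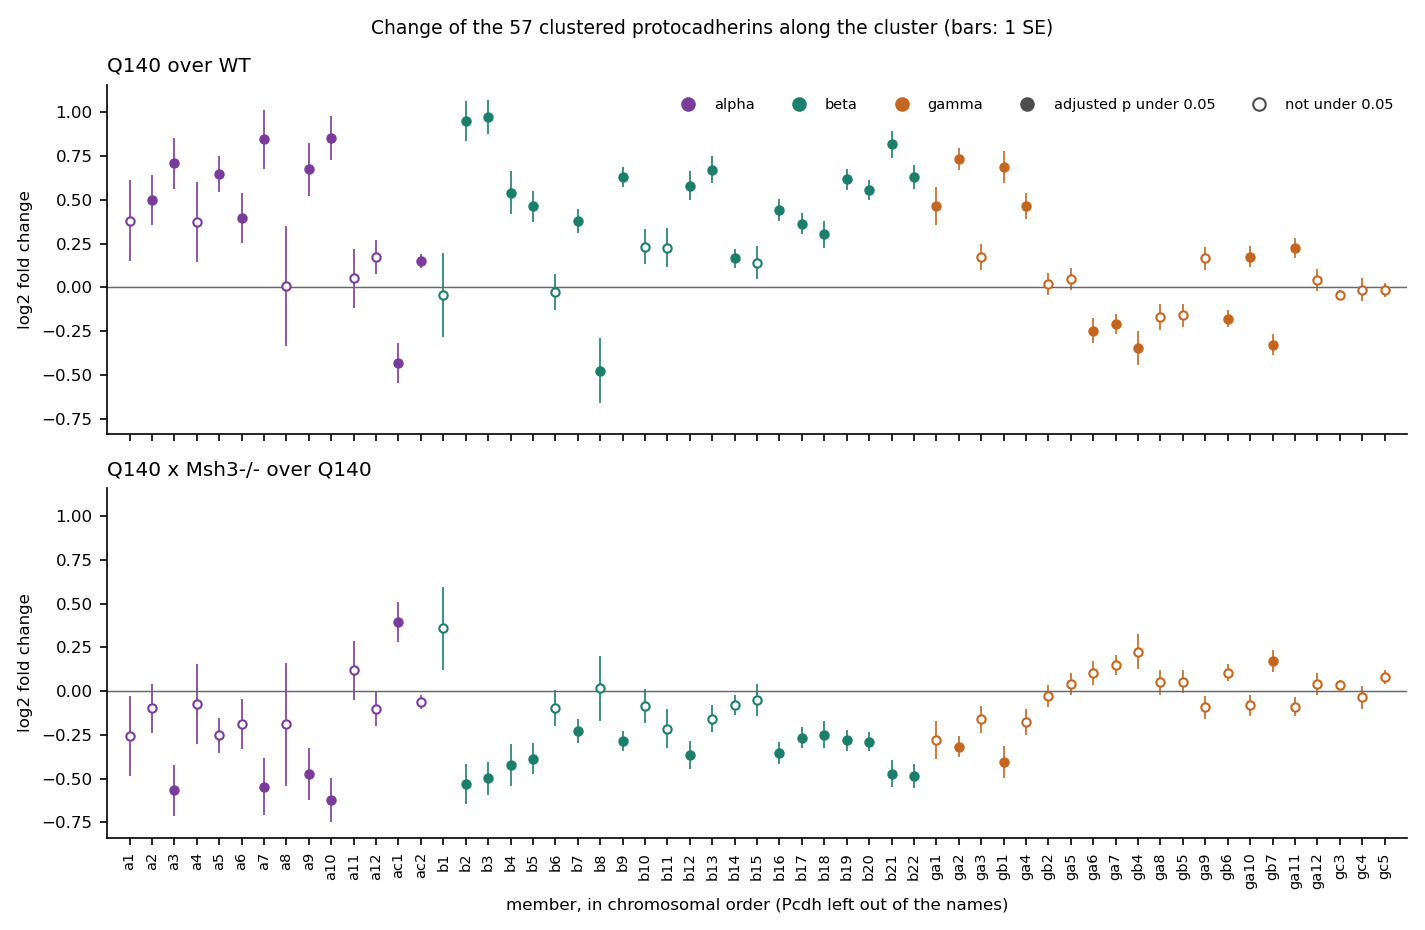
Log2 fold change of each member in chromosomal order, with bars of 1 standard error, in Q140 over WT mice (upper panel) and in Q140 x Msh3-/- over Q140 mice (lower panel). Filled dots passed an adjusted p of 0.05. Filled beta dots other than Pcdhb8 lie above 0 in the upper panel and below 0 in the lower panel, and the gamma dots lie on both sides of 0 in the upper panel, 11 above and 10 below.

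Of the beta genes, which encode adhesion proteins without the shared cytoplasmic part of the alpha and gamma proteins, Pcdhb3 (ENSMUSG00000045498; 37300799 to 37304585, a single exon) changed most. Its level was 7.42, 8.91 and 9.9 CPM in Q140 mice (lowest, median and highest of 8), against 3.54, 4.49 and 5.54 CPM in WT mice. The groups lay apart, and the log2 fold change was 0.97 (SE 0.0955, edgeR adjusted p = 4.2e-12), a 1.96-fold rise. Pcdhb2, the gene just before it, ran from 4.97 over a median of 5.99 to 7.93 CPM in Q140 mice and from 2.13 over 3.15 to 4.07 CPM in WT mice, again without overlap (log2 fold change 0.95, SE 0.1145, edgeR adjusted p = 1.66e-09). Pcdhb21, near the other end of the subcluster, reached 8.11, 9.62 and 11.4 CPM in Q140 mice, against 4.74, 5.47 and 5.95 CPM in WT mice (0.82, SE 0.0771, edgeR adjusted p = 1.16e-12). Its annotated exon overlaps the start of Pcdhb22, and reads there may count for neither gene. The overlap setting of the counting is not given in the sources used here. Pcdhb13 stood at 16.8, 18.4 and 20.0 CPM in Q140 mice and at 8.92, 11.2 and 14.5 CPM in WT mice (0.67, SE 0.0767, edgeR adjusted p = 4.41e-10), and Pcdhb9, the most abundant beta member per kb, at 22.8, 24.1 and 29.7 CPM in Q140 mice and 14.4, 15.4 and 17.5 CPM in WT mice (0.63, SE 0.0573, edgeR adjusted p = 3.24e-13). Each of these 5 genes was higher in all 8 Q140 mice than in any WT mouse.

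The other 11 beta genes that rose had log2 fold changes from 0.17 in Pcdhb14 to 0.63 in Pcdhb22; the call for Pcdhb14 was lost without a sex term and without the 4 libraries named below (0.083). Pcdhb8 was the single beta gene called lower: it had 4.35, 9.54 and 12.6 CPM in Q140 mice, against 8.39, 11.4 and 24.3 CPM in WT mice, so the groups overlapped widely (-0.48, SE 0.185, edgeR adjusted p = 0.0428). The highest WT values, 24.3 and 18.7 CPM, came from 2 of the 4 libraries with another name prefix than the rest. These 4 lie only in the Q140 and WT groups, 2 in each. They do not all share a prefix: the Q140 libraries among them have the same one, and the WT libraries have different ones. Without those 4 libraries the change was -0.354 and not called (edgeR adjusted p = 0.198), and 5 other processing alternatives also ended the call. The beta genes not called were Pcdhb1, Pcdhb6, Pcdhb10, Pcdhb11 and Pcdhb15, with log2 fold changes from -0.04 to 0.23. Pcdhb11 was called higher with total counts in place of TMM (0.297) and by limma (0.281). They did not share a place: Pcdhb6 at -0.03 lies between Pcdhb5 at 0.46 and Pcdhb7 at 0.38.

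In the alpha subcluster the largest rises were in variable genes at low levels. Pcdha10 (ENSMUSG00000007440; first exon 37005203 to 37007701) had 2.43, 3.04 and 3.64 CPM in Q140 mice and 1.03, 1.74 and 2.14 CPM in WT mice, without overlap (0.85, SE 0.1268, edgeR adjusted p = 2.66e-07). Pcdha7 ran from 1.62 over 1.72 to 2.55 CPM in Q140 mice and from 0.478 over 1.13 to 1.28 CPM in WT mice, also apart (0.85, SE 0.167, edgeR adjusted p = 5.56e-05). Pcdha3 at 1.87, 2.54 and 3.11 CPM in Q140 mice and 0.871, 1.54 and 1.97 CPM in WT mice (0.71, SE 0.1456, edgeR adjusted p = 9.94e-05) and Pcdha9 at 1.77, 2.76 and 4.03 CPM in Q140 mice and 1.25, 1.85 and 2.09 CPM in WT mice (0.67, SE 0.1503, edgeR adjusted p = 0.000318) overlapped between groups, although all 8 Q140 mice lay above the WT mean for both. The precision is that of 45 to 190 reads per library for Pcdha10 and 20 to 120 for Pcdha7. Of the 12 alpha genes outside the C-type, 7 rose and none fell, beside 17.0% of all genes that rose and 16.0% that fell. All 12 had positive values, with a median log2 fold change of 0.448. Pcdha4, the least abundant alpha member in FPKM, had a median of 0.816 CPM in Q140 mice and 0.578 CPM in WT mice and was not called (0.37, SE 0.2307, edgeR adjusted p = 0.223).

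The C-type genes were described apart, since they are used differently. Pcdhac1 (first exon 37090013 to 37092571), which neurons use more evenly than the variable alpha genes, fell: it had 0.988, 1.37 and 1.68 CPM in Q140 mice, against 1.58, 1.78 and 2.14 CPM in WT mice (-0.43, SE 0.1139, edgeR adjusted p = 0.00212). The groups met between 1.58 and 1.68 CPM. Pcdhac2, the most abundant alpha gene, rose slightly, with 29.9, 33.0 and 35.1 CPM in Q140 mice and 27.2, 29.3 and 33.6 CPM in WT mice (0.15, SE 0.0393, edgeR adjusted p = 0.00197). The 3 gamma C-type genes were not called. Pcdhgc3 averaged 80.2 ± 3.71 CPM in Q140 mice and 82.7 ± 2.44 CPM in WT mice (-0.04, SE 0.0291, edgeR adjusted p = 0.274), Pcdhgc4 8.11 ± 0.926 CPM in Q140 mice and 8.17 ± 0.533 CPM in WT mice (-0.01, SE 0.0659, edgeR adjusted p = 0.906), and Pcdhgc5 123.4 ± 8.66 CPM in Q140 mice and 124.7 ± 7.52 CPM in WT mice (-0.01, SE 0.0384, edgeR adjusted p = 0.812; SD, n = 8 each). Pcdhgc3 and Pcdhgc5 have among the deepest counts of the cluster, with 3426 to 7360 reads per library. Pcdhgc4 was far shallower, at a mean of 8.08 CPM over all libraries.

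The gamma genes held both directions. Of the 5 gamma genes nearest the beta subcluster, 4 rose: Pcdhga1, Pcdhga2, Pcdhgb1 and Pcdhga4. Of the other 13 outside the C-type, 2 rose and 5 fell. Of all genes tested, 17.0% rose and 16.0% fell. This split of the gamma genes was drawn after the values were seen and carries no test. Pcdhga2 (first exon 37668953 to 37671525) had 31.4, 35.7 and 38.9 CPM in Q140 mice, against 19.4, 21.4 and 22.9 CPM in WT mice, with a wide gap between the groups (0.74, SE 0.063, edgeR adjusted p = 7.9e-14). Pcdhgb1 had 10.9, 15.2 and 17.3 CPM in Q140 mice and 7.88, 8.62 and 11.3 CPM in WT mice (0.69, SE 0.0919, edgeR adjusted p = 3.21e-08), Pcdhga4 13.4, 17.6 and 18.7 CPM in Q140 mice and 11.2, 12.0 and 14.6 CPM in WT mice (0.47, SE 0.0747, edgeR adjusted p = 1.37e-06), and Pcdhga1 10.5, 13.1 and 15.7 CPM in Q140 mice and 7.63, 9.81 and 11.1 CPM in WT mice (0.46, SE 0.11, edgeR adjusted p = 0.000751). For each of those 3 genes 1 Q140 mouse lay below the highest WT mouse. Pcdhga3, which lies among them, had a value of 0.17 and was not called (SE 0.0754, edgeR adjusted p = 0.0697).

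The gamma genes that fell lie in the middle and later part of the row. Pcdhgb7 (first exon 37751600 to 37754193) had 15.6, 17.1 and 18.3 CPM in Q140 mice, all below the 18.9, 21.3 and 24.3 CPM of WT mice (-0.33, SE 0.0605, edgeR adjusted p = 1.9e-05). Pcdhgb4 had 6.72, 7.42 and 8.36 CPM in Q140 mice and 7.22, 9.64 and 10.9 CPM in WT mice, with overlap (-0.34, SE 0.0979, edgeR adjusted p = 0.00461), and was not called without the 4 libraries of another name prefix (-0.264, edgeR adjusted p = 0.0828). Pcdhga6, the most abundant gamma gene outside the C-type, had 33.2, 38.8 and 45.1 CPM in Q140 mice and 41.2, 45.9 and 49.6 CPM in WT mice (-0.25, SE 0.0697, edgeR adjusted p = 0.00465), and Pcdhga7, its neighbour, 35.8, 37.3 and 40.7 CPM in Q140 mice and 38.3, 44.7 and 47.9 CPM in WT mice (-0.21, SE 0.0574, edgeR adjusted p = 0.00344). Pcdhga7 was not called by limma (-0.136). By sequence type, of 12 A-type genes 5 rose and 2 fell, and of 6 B-type genes 1 rose and 3 fell. Over all genes tested, 17.0% rose and 16.0% fell. Pcdhga10 and Pcdhga11, further along, rose by 0.17 and 0.22, the first not with a well column term (0.146), so the change was no steady slope along the row. Across the 21 gamma genes Spearman's rho of change with order was -0.42, across the 22 beta genes 0.13 and across the 14 alpha genes -0.42. These genes share libraries and are no independent replicates. The rho of change with level per kb was -0.14 in gamma, -0.1 in beta and 0.09 in alpha.

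The summed level gives the change in dose of each subcluster per mouse. The beta sum was 290.3, 320.6 and 359.9 CPM in Q140 mice, against 220.9, 247.4 and 281.7 CPM in WT mice, with a ratio of means of 1.33 and no overlap. The whole alpha sum was 64.3, 67.9 and 70.5 CPM in Q140 mice and 50.6, 56.1 and 60.6 CPM in WT mice. Its ratio was 1.21, also without overlap. The 12 alpha genes outside the C-type alone summed to 31.1, 33.2 and 34.5 CPM in Q140 mice and 20.4, 24.6 and 27.9 CPM in WT mice, a ratio of 1.37, again without overlap. The gamma sum was 594.1, 633.9 and 658.4 CPM in Q140 mice and 591.0, 617.7 and 648.2 CPM in WT mice, a ratio of 1.02 with wide overlap, and the C-type sum averaged 246.0 ± 8.84 CPM in Q140 mice and 247.0 ± 8.08 CPM in WT mice (SD, n = 8 each). The log2 ratio of the gamma sums was 0.026, below the SD between mice of 0.044, but it was 0.095 with total counts in place of TMM and 0.099 in FPKM, above that SD.

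**Figure D3:**
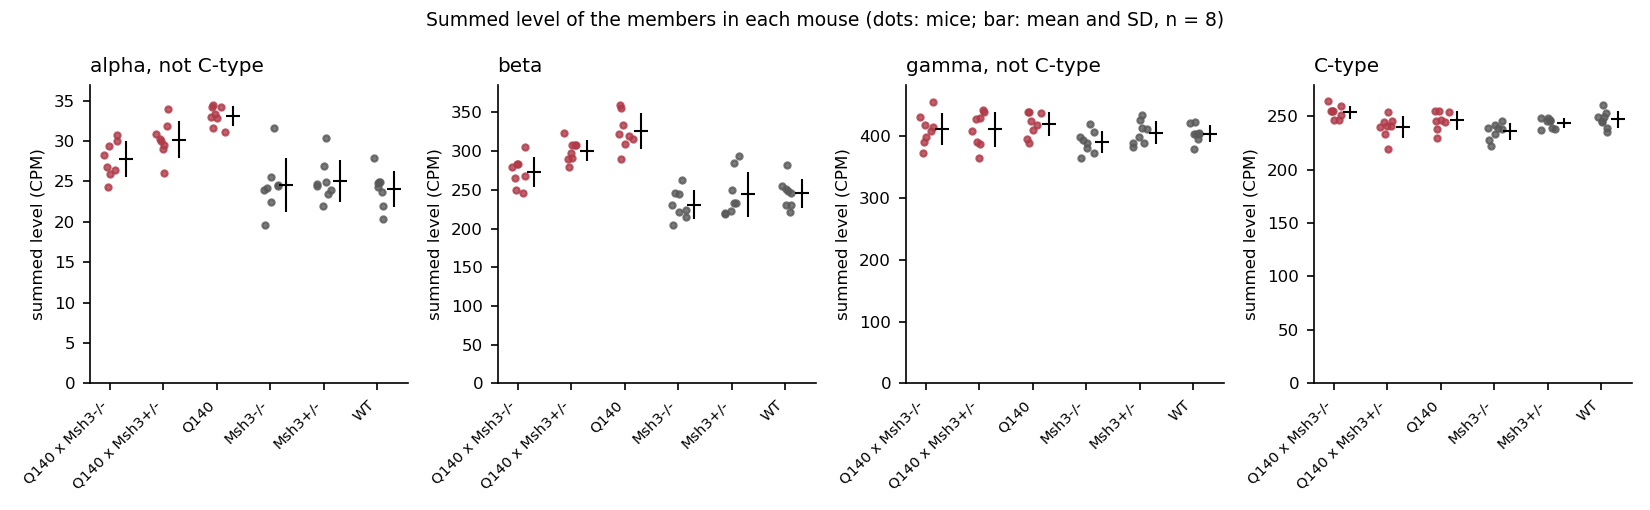
Summed level of the members in each mouse, in CPM, for the alpha genes outside the C-type, the beta genes, the gamma genes outside the C-type and the C-type genes. Dots are mice, and bars give the mean and SD of 8 mice; Q140 genotypes are red. The Q140 dots of the alpha and beta panels, 31.1 to 34.5 and 290.3 to 359.9 CPM, lie above all WT dots, and those of the other panels overlap them.

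The Q140 effect was then read on each Msh3 background, to ask whether the subclusters respond alike there. Between Q140 x Msh3+/- and Msh3+/- mice 27 members rose (5 alpha, 15 beta and 7 gamma) and 5 fell (1 beta and 4 gamma), where 10.8% of all genes rose and 10.8% fell. Between Q140 x Msh3-/- and Msh3-/- mice 20 members rose (2 alpha, 12 beta and 6 gamma) and 0 fell, where 4.01% of all genes rose and 3.84% fell. At an unadjusted p under 0.05 (edgeR) 26 members differed, beside 4125 of all 19714 genes tested. The other tools also called 0 lower (DESeq2 and limma). The median log2 fold change was 0.357 in beta, 0.301 in alpha and -0.024 in gamma on the Msh3+/- background, and 0.235 in beta, 0.169 in alpha and 0.064 in gamma on the Msh3-/- background. The summed projection neuron markers were 8657 to 10328 CPM in Q140 x Msh3+/- mice against 14236 to 15346 CPM in Msh3+/- mice, and 10064 to 12915 CPM in Q140 x Msh3-/- mice against 13465 to 15605 CPM in Msh3-/- mice; their part in these results was not tested.

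Beta genes led in both. Pcdhb3 had 6.59, 7.67 and 10.5 CPM in Q140 x Msh3+/- mice, against 3.39, 4.49 and 5.23 CPM in Msh3+/- mice (0.84, SE 0.0959, edgeR adjusted p = 8.55e-10), and 4.71, 6.11 and 7.53 CPM in Q140 x Msh3-/- mice, against 3.88, 4.56 and 5.4 CPM in Msh3-/- mice (0.44, SE 0.0967, edgeR adjusted p = 0.00167). The groups lay apart on the first background and overlapped on the second. Pcdhb2 changed by 0.74 (SE 0.1149, edgeR adjusted p = 1.3e-06) on the Msh3+/- background and by 0.51 (SE 0.1168, edgeR adjusted p = 0.00259) on the Msh3-/- background. Pcdhb9 had 21.7 to 26.1 CPM in Q140 x Msh3+/- mice and 14.4 to 20.3 CPM in Msh3+/- mice (0.56, SE 0.0573, edgeR adjusted p = 3.67e-11), and 17.1 to 22.9 CPM in Q140 x Msh3-/- mice and 13.6 to 15.6 CPM in Msh3-/- mice (0.46, SE 0.058, edgeR adjusted p = 1.48e-07). It lay apart on both backgrounds. Pcdhb21 changed by 0.49 (SE 0.0785, edgeR adjusted p = 1.99e-05) on the Msh3-/- background, and Pcdhga1 by 0.47 (SE 0.112, edgeR adjusted p = 0.00504). Pcdhb8 was again lower on the Msh3+/- background (-0.56, SE 0.1862, edgeR adjusted p = 0.0256), at 5.52, 8.36 and 12.1 CPM in Q140 x Msh3+/- mice and 8.35, 11.7 and 20.4 CPM in Msh3+/- mice. The groups overlapped, and the call was lost without a sex term and without the 3 libraries far out on the first residual component.

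The 4 gamma genes nearest the beta subcluster that rose in Q140 mice rose on both backgrounds. Pcdhga1 lost its call on the Msh3+/- background without the filter on low counts and without a sex term. None of the gamma genes that fell in Q140 mice was called on the Msh3-/- background. Of all genes tested, 10.8% rose and 10.8% fell on the Msh3+/- background, and 4.01% rose and 3.84% fell on the Msh3-/- background. Pcdhgb7 had a log2 fold change of -0.21 (SE 0.0604, edgeR adjusted p = 0.00809) on the Msh3+/- background, not called with total counts (-0.147) or by limma (-0.148), and -0.11 on the Msh3-/- background (SE 0.0606, edgeR adjusted p = 0.323). Of the C-type genes, 2 rose on the Msh3-/- background: Pcdhac2 (0.18, SE 0.0395, edgeR adjusted p = 0.00231), and Pcdhgc5 (0.14, SE 0.0384, edgeR adjusted p = 0.0179), which had 122.4 to 142.4 CPM in Q140 x Msh3-/- mice against 109.2 to 126.3 CPM in Msh3-/- mice.

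Whether the Msh3 genotype changes the Q140 effect was tested directly as the effect on the Msh3 background minus the effect on the WT background. For Msh3-/-, 2 members were higher and 6 lower, where 4.09% of all genes were higher and 2.06% lower. The Q140 effect was smaller by 0.75 in Pcdha7 (-0.75, SE 0.2376, edgeR adjusted p = 0.0444), 0.68 in Pcdha10 (-0.68, SE 0.1809, edgeR adjusted p = 0.0131), 0.68 in Pcdha3 (-0.68, SE 0.2077, edgeR adjusted p = 0.0382), 0.53 in Pcdhb3 (-0.53, SE 0.1356, edgeR adjusted p = 0.00925), 0.34 in Pcdhb22 and 0.31 in Pcdhga2. It was higher in Pcdhac1 (0.55, SE 0.1608, edgeR adjusted p = 0.0266) and Pcdhga7 (0.29, SE 0.0812, edgeR adjusted p = 0.0223), which had both fallen in Q140 mice. The tested difference contains the Q140 minus WT value with its sign reversed, so it shares mice with that comparison and is not independent of it. Without the 4 libraries of another name prefix, 2 of the 6 lower calls were left, Pcdha10 and Pcdhb3, and 1 of the 2 higher calls, Pcdhac1. The values of the 5 that were lost were -0.693 in Pcdha7, -0.673 in Pcdha3, -0.317 in Pcdhb22, -0.31 in Pcdhga2 and 0.291 in Pcdhga7. Without the filter on low counts the calls for Pcdha7, Pcdha3 and Pcdhac1 were lost. Pcdha7 was also lost without a sex term and without the 3 libraries far out on the first residual component, Pcdhga2 with a well column term, and Pcdhga7 with total counts and by limma. For Msh3+/- the same difference called 0 members in edgeR (0.0152% of all genes higher, 0% lower), 0 in DESeq2 and 0 in limma. At an unadjusted p under 0.05 (edgeR) there were 6 members, beside 1791 of all 19714 genes tested.

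Q140 x Msh3-/- mice were next set against Q140 mice. In them 20 members fell and 2 rose, where 7.57% of all genes fell and 8.75% rose. The falls comprised 14 of 22 beta, 4 of 14 alpha and 2 of 21 gamma genes, and the rises were Pcdhac1 and Pcdhgb7, the second lost in 5 alternatives. The median log2 fold change was -0.274 in beta, -0.188 in alpha and 0.034 in gamma, beside 0 over all genes tested. This comparison shares its Q140 mice with the first one, and the values are given side by side only.

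Pcdha10 had 1.49, 1.96 and 2.58 CPM in Q140 x Msh3-/- mice, against 2.43, 3.04 and 3.64 CPM in Q140 mice (-0.62, SE 0.1252, edgeR adjusted p = 0.000229). The groups met between 2.43 and 2.58 CPM. Pcdha3 changed by -0.57 (SE 0.1444, edgeR adjusted p = 0.00357), Pcdha7, whose call was lost without the 4 libraries of another name prefix, by -0.55 (SE 0.1642, edgeR adjusted p = 0.015) and Pcdhb2 by -0.53 (SE 0.1124, edgeR adjusted p = 0.000454). Pcdhb3 had 4.71, 6.11 and 7.53 CPM in Q140 x Msh3-/- mice and 7.42, 8.91 and 9.9 CPM in Q140 mice (-0.50, SE 0.0936, edgeR adjusted p = 7.48e-05), with overlap at the edge. The groups lay fully apart for 3 members, Pcdhb21, Pcdhb22 and Pcdhga2, all lower; 0.862% of all genes were lower in this way and 2.01% higher. Pcdhga2 had 26.7, 28.3 and 30.3 CPM in Q140 x Msh3-/- mice, against 31.4, 35.7 and 38.9 CPM in Q140 mice (-0.32, SE 0.0621, edgeR adjusted p = 0.000158). In the other direction, Pcdhac1 had 1.39, 1.7 and 2.22 CPM in Q140 x Msh3-/- mice and 0.988, 1.37 and 1.68 CPM in Q140 mice (0.39, SE 0.1139, edgeR adjusted p = 0.0112), and Pcdhgb7 17.5, 19.3 and 21.5 CPM in Q140 x Msh3-/- mice and 15.6, 17.1 and 18.3 CPM in Q140 mice (0.17, SE 0.0607, edgeR adjusted p = 0.0432). The call for Pcdhgb7 was lost with total counts (0.136), without the filter on low counts, without a sex term, without the 3 libraries far out on the first residual component and by limma (0.13).

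The summed beta level was 245.8, 273.7 and 304.9 CPM in Q140 x Msh3-/- mice and 290.3, 320.6 and 359.9 CPM in Q140 mice, a ratio of 0.836, and it averaged 230.9 ± 19.0 CPM in Msh3-/- mice (SD, n = 8). The alpha sum outside the C-type was 24.3, 27.5 and 30.8 CPM in Q140 x Msh3-/- mice, all below the 31.1, 33.2 and 34.5 CPM of Q140 mice. The whole alpha sum overlapped, at 57.2 to 65.2 CPM in Q140 x Msh3-/- mice and 64.3 to 70.5 CPM in Q140 mice, a ratio of 0.906. The gamma sum did not separate the groups, at 632.3 ± 28.5 CPM in Q140 x Msh3-/- mice and 631.4 ± 20.7 CPM in Q140 mice (SD, n = 8 each). Summed markers of striatal projection neurons were 10064 to 12915 CPM in Q140 x Msh3-/- mice and 7742 to 8665 CPM in Q140 mice. All 12 were higher, beside 8.75% of all genes, and their part in the result was not tested.

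**Figure D4:**
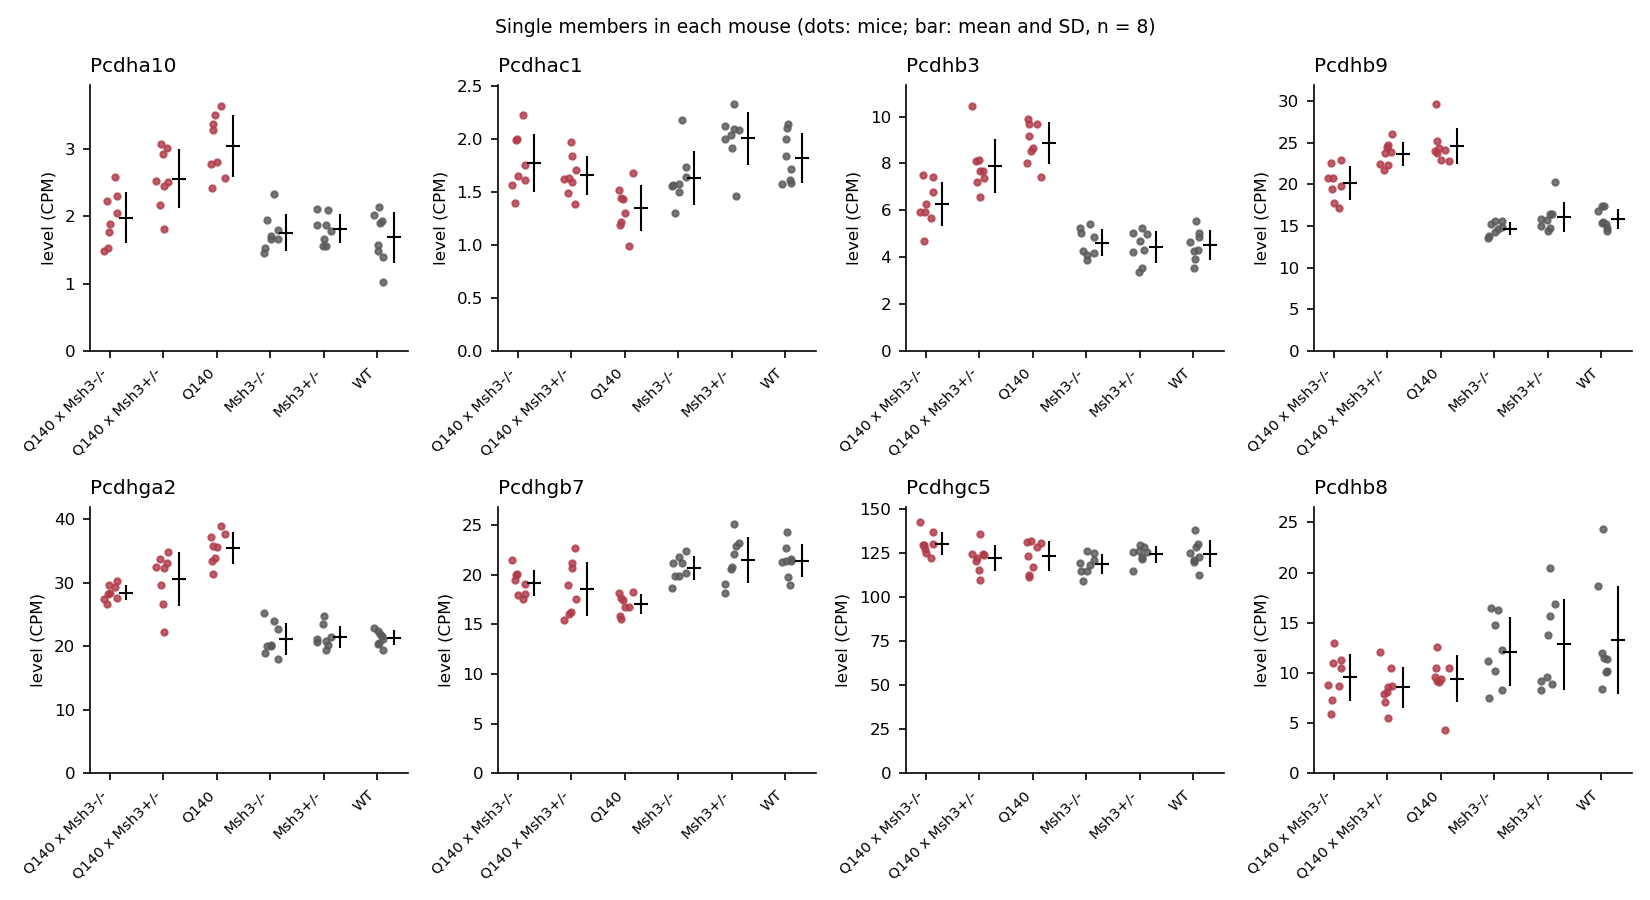
Levels of 8 members in each mouse of the 6 genotypes, in CPM, with axes from 0. Dots are mice, and bars give the mean and SD of 8 mice; Q140 genotypes are red. Pcdha10, Pcdhb3, Pcdhb9 and Pcdhga2 have their highest mean in Q140 mice, Pcdhac1 and Pcdhgb7 their lowest, the groups of Pcdhgc5 overlap between Q140 and WT mice, and Pcdhb8 has 1 WT mouse at 24.3 CPM.

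With 1 mutant Msh3 allele the difference was not called. Between Q140 x Msh3+/- and Q140 mice edgeR called 0 members, where 0.842% of all genes rose and 0.477% fell. At an unadjusted p under 0.05 (edgeR) there were 13 members, beside 2757 of all 19714 genes tested. DESeq2 called 3 members lower and limma 0. The median log2 fold change was -0.116 in beta, -0.115 in alpha and -0.015 in gamma, and 43 of 57 values were negative. Of the 12 projection neuron markers 7 were higher, with sums of 8657 to 10328 CPM in Q140 x Msh3+/- mice and 7742 to 8665 CPM in Q140 mice. Q140 x Msh3-/- mice set against Q140 x Msh3+/- mice had 4 beta genes lower and 0 members higher, where 0.938% of all genes were lower and 2.29% higher. The lower members numbered 11 with total counts, 9 by limma and 5 by DESeq2, and the shares of all genes in these settings are not given here. Total counts moved the median of all genes by -0.041 in this comparison, and the FPKM used by limma are also scaled to library totals. Of the 12 projection neuron markers 11 were higher, with sums of 10064 to 12915 CPM in Q140 x Msh3-/- mice and 8657 to 10328 CPM in Q140 x Msh3+/- mice, and their part in these results was not tested. The genes called by edgeR were Pcdhb3 (-0.33, SE 0.0939, edgeR adjusted p = 0.0325), Pcdhb22 (-0.27, SE 0.0687, edgeR adjusted p = 0.0148), Pcdhb16 (-0.24, SE 0.0622, edgeR adjusted p = 0.0164) and Pcdhb9 (-0.23, SE 0.0567, edgeR adjusted p = 0.00941). Pcdhb22 had 14.6, 15.3 and 18.3 CPM in Q140 x Msh3-/- mice and 16.1, 19.3 and 22.6 CPM in Q140 x Msh3+/- mice, and Pcdhb16 14.2, 15.4 and 20.5 CPM in Q140 x Msh3-/- mice and 18.4, 19.1 and 20.0 CPM in Q140 x Msh3+/- mice. Both pairs overlapped, and the call for Pcdhb3 was lost with only the groups compared in the fit (-0.336). The count of higher members was 1 in DESeq2 and 0 in limma. An unadjusted p under 0.05 (edgeR) was reached by 19 members, beside 2995 of all 19714 genes tested.

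Without the Q140 allele the Msh3 genotype called no member. Between Msh3-/- and WT mice edgeR, DESeq2 and limma called 0 of 57, where edgeR called 0.0101% of all genes higher and 0.0355% lower. At an unadjusted p under 0.05 (edgeR) there were 9 members, beside 1187 of all 19714 genes tested. Between Msh3+/- and WT mice the count was 0 in all of these tools, where edgeR called 0.0101% of all genes higher and 0% lower. It was also 0 at an unadjusted p under 0.05, beside 937 of all 19714 genes tested. The values ran from -0.28 to 0.34 for Msh3-/- and from -0.17 to 0.18 for Msh3+/- on the log2 scale. Pcdhb3 averaged 4.62 ± 0.582 CPM in Msh3-/- mice, 4.43 ± 0.688 CPM in Msh3+/- mice and 4.52 ± 0.642 CPM in WT mice (SD, n = 8 each), and Pcdhga2 averaged 21.2 ± 2.54 CPM in Msh3-/- mice, 21.5 ± 1.76 CPM in Msh3+/- mice and 21.3 ± 1.17 CPM in WT mice.

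**Figure D5:**
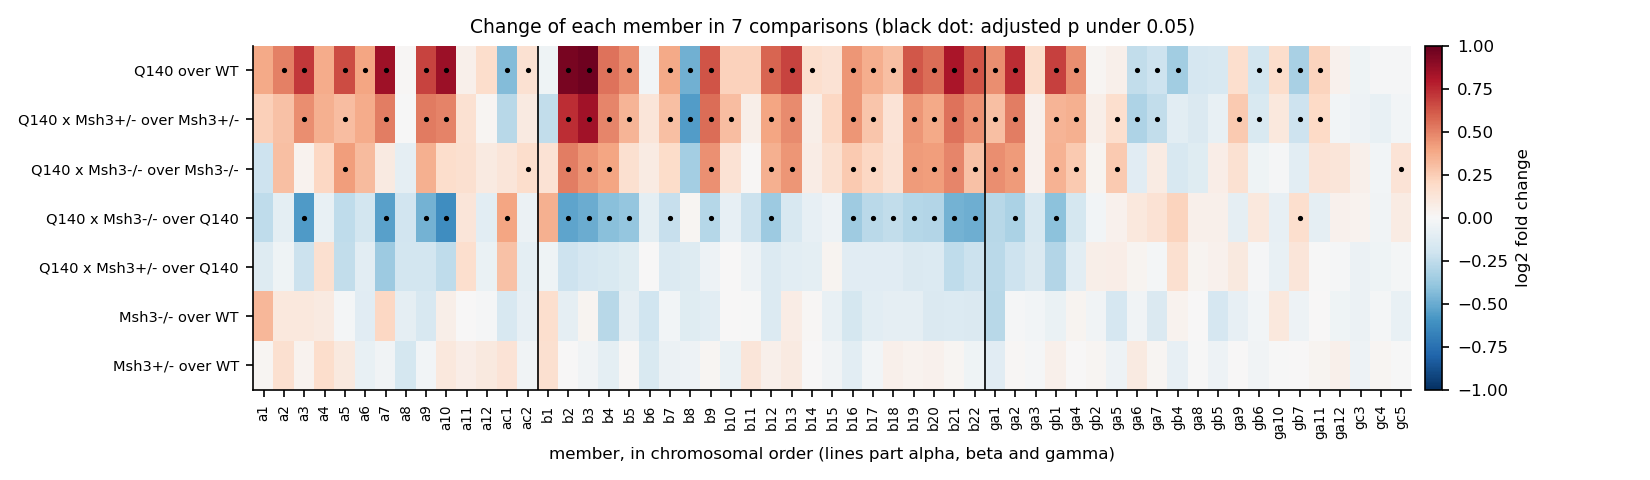
Log2 fold change of each member (columns, in chromosomal order) in 7 comparisons (rows), with the colour scale from -1 to 1; black dots mark an adjusted p under 0.05. The first 3 rows are the Q140 effect on the WT, Msh3+/- and Msh3-/- backgrounds, with 30, 27 and 20 members higher; comparisons that share mice are not independent.

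Males and females differed in some members across all genotypes. In males 9 members were lower (6 beta, 1 alpha and 2 gamma) and 0 higher, where 2.61% of all genes were lower and 1.65% higher. An unadjusted p under 0.05 (edgeR) was reached by 25 members, beside 3601 of all 19714 genes tested. DESeq2 called 1 member higher and limma 2. Pcdhb6, 1 of the beta genes not called between Q140 and WT mice, had 10.4, 13.3 and 16.0 CPM in males (lowest, median and highest of 24), against 12.3, 17.3 and 23.1 CPM in females (-0.41, SE 0.0602, edgeR adjusted p = 1.48e-05). Pcdha8 had 0.15, 0.473 and 1.02 CPM in males and 0.141, 0.951 and 1.69 CPM in females (-0.84, SE 0.2058, edgeR adjusted p = 0.0119). Pcdhb8 had 4.35, 9.24 and 13.8 CPM in males and 5.52, 11.4 and 24.3 CPM in females (-0.43, SE 0.1073, edgeR adjusted p = 0.0135), and Pcdhb11 5.2, 7.91 and 11.8 CPM in males and 6.51, 9.59 and 13.6 CPM in females (-0.24, SE 0.0647, edgeR adjusted p = 0.0218). The call for Pcdhb11 was lost without the 4 libraries of another name prefix (-0.217). The ranges of the sexes overlapped for all 4 genes. The Q140 effect was not called as different between the sexes for any member in edgeR (0% of all genes higher and 0% lower). At an unadjusted p under 0.05 there was 1 member, beside 658 of all 19714 genes tested. No other tool was run on that test.

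Other genes of the locus were measured beside the members. Of 11 tested genes that lie between the first and the last member, 2 passed between Q140 and WT mice, and both fell, beside 16.0% of all genes that fell and 17.0% that rose. Taf7, which encodes a subunit of the general transcription factor TFIID and lies between the beta and gamma genes on the minus strand, averaged 5.92 ± 0.412 CPM in Q140 mice and 6.97 ± 0.927 CPM in WT mice (SD, n = 8 each; -0.24, SE 0.0842, edgeR adjusted p = 0.0253), and was not called with total counts (-0.166), with a well column term (-0.221) or by limma (-0.151). The noncoding 3222401L13Rik, just before Pcdhga1, averaged 3.38 ± 0.556 CPM in Q140 mice and 4.85 ± 0.544 CPM in WT mice (-0.52, SE 0.108, edgeR adjusted p = 0.000121). The nearest members on either side, Pcdhb22 and Pcdhga1, rose. The others, Gm10545, Gm26672, Gm10544, Gm38225, Gm8242, BC037039, Gm37753, Gm37751 and Gm20162, were not called and had mean levels from 0.106 to 2.46 CPM in Q140 mice.

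Genes known to control the cluster were measured too. Cohesin and CTCF loop the promoters to distant enhancers, DNA methyltransferases and SMCHD1 keep promoters silent, and TET enzymes remove methylation. Of 24 such genes 6 rose and 3 fell between Q140 and WT mice, with a median log2 fold change of 0.04, beside 17.0% of all genes that rose and 16.0% that fell. The 4 that moved most were Tet2, a TET enzyme (0.33, SE 0.0484, edgeR adjusted p = 2.76e-07), Rest, a repressor of neuronal genes (0.17, SE 0.068, edgeR adjusted p = 0.0469), Dnmt3a, a DNA methyltransferase (-0.17, SE 0.0408, edgeR adjusted p = 0.000817), and Stag2, a cohesin subunit (0.16, SE 0.0359, edgeR adjusted p = 0.00048). The call for Rest was lost without the filter on low counts, with the replicate block and with a well column term (0.13), and that for Dnmt3a with total counts (-0.1) and by limma (-0.098). Ctcf had a value of -0.06 and was not called (SE 0.0318, edgeR adjusted p = 0.137). Between Q140 x Msh3-/- and Q140 mice 0 of the 24 rose and 2 fell, beside 8.75% of all genes that rose and 7.57% that fell, Tet2 among them (-0.22, SE 0.0483, edgeR adjusted p = 0.000669).

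Partners of the protocadherins, several of which act on the cytoskeleton, were a further list. Of 20 genes 9 fell and 2 rose between Q140 and WT mice, with a median of -0.09, beside 16.0% of all genes that fell and 17.0% that rose. Marcks, a substrate of protein kinase C, rose (0.41, SE 0.0436, edgeR adjusted p = 5.49e-11). Cyfip2 (-0.36, SE 0.0365, edgeR adjusted p = 1.54e-11) and Abi1 (-0.31, SE 0.03, edgeR adjusted p = 1.76e-12), subunits of the WAVE complex that starts actin branching, fell, as did the kinase gene Ptk2b (-0.28, SE 0.0279, edgeR adjusted p = 4.34e-12). Between Q140 x Msh3-/- and Q140 mice 8 of the 20 rose and 0 fell, beside 8.75% of all genes that rose and 7.57% that fell.

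Marker lists of other cell types were measured as well. Between Q140 and WT mice 0 of 12 interneuron markers rose and 5 fell, as did 5 of 10 for astrocytes, 3 of 10 for oligodendrocytes, 6 of 10 for microglia and 9 of 10 for vascular cells, each with 0 higher. Oligodendrocyte precursors had 1 of 6 higher and 2 lower, choroid plexus and ependyma 1 of 6 higher and 1 lower, and cortical neurons 2 of 6 higher. These counts stand beside 17.0% of all genes that rose and 16.0% that fell. Summed levels were 415.5 to 454.6 CPM in Q140 mice and 475.5 to 523.9 CPM in WT mice for interneurons, 4260 to 4640 CPM in Q140 mice and 4949 to 5376 CPM in WT mice for astrocytes, 5030 to 6006 CPM in Q140 mice and 5605 to 6714 CPM in WT mice for oligodendrocytes, and 192.3 to 221.9 CPM in Q140 mice and 197.4 to 214.6 CPM in WT mice for their precursors. They were 403.7 to 470.8 CPM in Q140 mice and 483.9 to 579.3 CPM in WT mice for microglia, 315.0 to 344.6 CPM in Q140 mice and 367.9 to 458.7 CPM in WT mice for vascular cells, 43.9 to 56.6 CPM in Q140 mice and 36.8 to 75.7 CPM in WT mice for choroid plexus and ependyma, and 26.2 to 38.1 CPM in Q140 mice and 22.8 to 39.0 CPM in WT mice for cortical neurons. Of these markers, Ccdc153 of the ependyma was at 0 counts in 1 library and the others in none. Their part in the protocadherin results was not tested.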

How the data were processed

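The deposited counts are whole reads per gene, made by the authors with STAR 2.7.5c, SAMtools 1.10 and HTSeq 0.12.3 on GRCm38, per the submitters' processing notes, from stranded TruSeq libraries, per the labels' protocols; no source used here gives the strand setting. In the deposited table, FPKM equal count over length and library total (largest relative deviation 1.5e-06 over 34244 genes), with lengths that include shared exons. Members, gene lists and tests were chosen with earlier results of these data known. Counts were fitted for all 48 libraries with edgeR 4.0.16 in R 4.3.3 (TMM scaling, filterByExpr with a minimum count of 10, genotype and sex as terms, 41 residual degrees of freedom), tested by quasi-likelihood and adjusted over 19714 genes at 0.05; 29081 genes were filtered out. The fit was also run on simulated counts with the same dispersion for all genes. That run does not measure how reliable the calls for single members are. Printed CPM are TMM-scaled; the membership rule used CPM of library totals. DESeq2 1.42.0, limma 3.58.1 on log2(FPKM + 0.1) and other settings were alternatives. Own exon lengths come from GENCODE M21. The gene listed under a second Pcdha11 row is named Pcdha10 and that under a second Pcdhga8 row Pcdhgc4, by their gene IDs and first exons. Named genes were the up to 4 largest rises and falls past the threshold per subcluster in Q140 minus WT, the C-type genes, the highest and lowest members in FPKM, the up to 4 largest changes in every other comparison, the up to 4 largest in the 2 lists, and tested genes within the locus; further members are named as examples chosen after their values were seen. Alternatives were run for each member in each comparison that called it. Replicates are separate mice, per the labels.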

Additional observations from a re-analysis of the deposited data

Results flagged for a closer look

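A single mouse stood far from the other 7 of its genotype in 14 of 198 groups examined (30 named members and 3 summed levels in 6 genotypes; the rule compares the gap to the nearest mouse with the range, and chance gives this in about 1 of 20 groups). In Q140 x Msh3-/- mice this was Pcdhga4 at 19.5 CPM in a female, against 13.0 to 15.9 CPM in the others. In Q140 x Msh3+/- mice, 1 female had 10.5 CPM of Pcdhb3 (others 6.59 to 8.14) and 9.32 CPM of Pcdhb21 (others 7.62 to 8.4), and another had the lowest summed alpha level, 54.8 CPM (others 61.9 to 65.9); this last mouse is 1 of the 3 libraries far out on the first residual component. In Q140 mice, Pcdhb8 was at 4.35 CPM in a male (others 9.13 to 12.6), Pcdhb9 at 29.7 CPM in a female (others 22.8 to 25.2), and a second male had 13.4 CPM of Pcdhga4 (others 16.3 to 18.7) and 10.2 CPM of Pcdhgc4 (others 7.19 to 8.44). In Msh3-/- mice, Pcdha7 reached 2.08 CPM (others 0.885 to 1.29), Pcdha3 2.56 CPM (others 1.16 to 1.72) and Pcdha9 1.81 CPM (others 1.43 to 1.6), each in a different mouse. In Msh3+/- mice, 1 female had 20.3 CPM of Pcdhb9 (others 14.4 to 16.5) and 15.6 CPM of Pcdhga4 (others 10.9 to 13.1). In WT mice, Pcdhb16 was at 12.6 CPM in a male (others 15.2 to 16.0).

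The Q140 effect differed between the Msh3-/- and the WT background for 8 members, by the direct test of the difference in edgeR on the log2 scale. It was lower on the Msh3-/- background for Pcdha7 (-0.75), Pcdha10 (-0.68), Pcdha3 (-0.68), Pcdhb3 (-0.53), Pcdhb22 (-0.34) and Pcdhga2 (-0.31), and higher for Pcdhac1 (0.55) and Pcdhga7 (0.29). Without the 4 libraries of another name prefix, Pcdha10, Pcdhb3 and Pcdhac1 kept their calls and the other 5 lost them. Pcdha7 also lost its call without the filter on low counts, without a sex term (edgeR adjusted p = 0.0609) and without the 3 libraries far out on the first residual component (edgeR adjusted p = 0.0541).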

How the results depend on the processing

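Of 420 alternative values of the counts and summed levels, 377 stayed within 1.5 times the main count or 1 SD and 43 moved; of the alternative values of single genes 1657 kept their side of the threshold, 71 lost a call and 2 gained one, and none turned round. In Q140 minus WT, limma called 4 members lower (3 gamma), and 0 beta genes were lower with total counts, without a low-count filter, without a sex term, without the 4 libraries of another prefix, with only the groups compared and in limma. The log2 ratio of summed alpha was 0.356 in FPKM, and that of gamma 0.095 with total counts and 0.099 in FPKM. In Q140 x Msh3+/- minus Q140 the members lower were 2 with a well column term and 3 in DESeq2. In Q140 x Msh3-/- minus Q140 the members higher were 1 with total counts, without a filter, without a sex term and in limma, and 4 with a well column term and with only the groups compared; the gamma genes higher were 0, 0, 0, 0, 3 and 3 in the same settings, and 2 without the 3 libraries far out on the first residual component (an alternative chosen after seeing the data), and the gamma genes lower were 4 with total counts and in limma. In Q140 x Msh3-/- minus Q140 x Msh3+/- DESeq2 called 1 member higher, and 11 were lower with total counts and 9 in limma. In Q140 x Msh3+/- minus Msh3+/- 3 members were lower with total counts and in limma. For the difference of the Q140 effect on Msh3-/-, members higher were 1 with total counts, without a filter, without the 4 libraries and in limma, and 5 with a well column term, and 2 were lower without the 4 libraries. In male minus female, members higher were 2 with total counts and in limma, and 1 without the 4 libraries and in DESeq2. The cause was not tested. Total counts moved the median of all genes by 0.069 in Q140 minus WT and by 0.063 in Q140 x Msh3+/- minus Msh3+/-. The shift was -0.036 in Q140 x Msh3-/- minus Q140 and -0.041 in Q140 x Msh3-/- minus Q140 x Msh3+/-. The replicate block gave 32 higher and 9 lower in Q140 minus WT, and 2 higher and 21 lower in Q140 x Msh3-/- minus Q140; replicate numbers do not pair the mice (correlation of same-numbered libraries -0.236 to 0.395, and 16 of 48 closest to their own number). Depth limits the lowest members, with as few as 6 reads of Pcdha8 and 10 of Pcdhb1 in a library.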
